A study of Mus musculus with 36 samples.

Results

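The 9 genes described here encode neurotrophic factors and their receptors: the ligands Bdnf and Ntf3, the neurotrophin receptors Ntrk2, Ntrk3 and Ngfr, the neurotrophin-induced secreted peptide precursor Vgf, the GDNF family receptor components Gfra1 and Ret, and the ciliary neurotrophic factor receptor Cntfr. The 9 members were the rows with these symbols in the deposited table of 31554 genes, and each symbol matched 1 row. Expression was measured by RNA sequencing of polyadenylated RNA in the nucleus accumbens (NAc, ventral striatum, reward), the medial prefrontal cortex (PFC) and the periaqueductal grey (PAG, a midbrain centre of descending pain control). The animals were adult male C57BL/6 mice with sham surgery or spared nerve injury (SNI), in which branches of the sciatic nerve are damaged and another is left intact, as a model of neuropathic pain. The regions were dissected 2.5 months after surgery. Sham and SNI mice gave 6 libraries each for every region, so that 36 libraries fell into 6 groups. The labels describe the RNA of a library as pooled and do not say which or how many mice stand behind it, so p-values reflect only the variation among these libraries, some of which may be technical.

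Neurotrophic factors are secreted proteins that bind receptors on neurons and support their survival, growth and synaptic change. BDNF acts mainly through the receptor tyrosine kinase TrkB (gene Ntrk2) and neurotrophin-3 (Ntf3) through TrkC (Ntrk3), while the low-affinity neurotrophin receptor (Ngfr) binds neurotrophins and their uncleaved precursors. GDNF binds the membrane-anchored coreceptor Gfra1, which then engages the kinase RET, and CNTF binds an anchored receptor (Cntfr) that recruits the signalling chains LIFR and gp130. BDNF is made in the cortex by excitatory neurons and carried along their axons to the striatum, and its release in pain circuits has been studied widely.

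Libraries held 27.6 to 64.9 M assigned reads, and values are RPKM, reads per kilobase of gene per M (mega) assigned reads. Summed markers of medium spiny neurons ran from 663 to 999 RPKM in NAc libraries and from 33.8 to 76.7 in the other regions. Those of cortical excitatory neurons ran from 532 to 673 in PFC, 3.55 to 5.84 in PAG and 2.27 to 207 in NAc, so cortical transcripts were uneven among NAc libraries. Those of subcortical glutamatergic and midbrain neurons ran from 122 to 146 in PAG and from 2.01 to 5.89 elsewhere. A further measure differed between libraries, the GC slope: the slope of a library's log2 values, relative to its region's mean, on the GC content of the transcripts, in log2 units per 10 percentage points. In PAG this slope was −0.115 ± 0.0612 after sham surgery and 0.115 ± 0.0599 after SNI (SD, n = 6), negative in every sham and positive in every SNI library (two-sided exact permutation p = 0.00216, the smallest this design allows; adjusted p = 0.0281 over 13 library measures). In PAG the GC slope and the surgery therefore cannot be told apart. In NAc and PFC the groups overlapped in this slope (exact permutation p = 0.234 and 0.909).

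The members differ widely in base composition, and part of their sequence is shown for that reason. The longest transcript of Vgf was 64.1% G or C, above 99.4% of the genes measured, and that of Cntfr 59.8%, above 95.3%. Ngfr had 58.6%, Ret 51.4%, Gfra1 49.7%, Ntf3 48.9%, Ntrk2 48.6%, Ntrk3 43.6% and Bdnf 40.9%, against a median of 49.7% over genes. The low value of Bdnf lies outside its coding part, whose 867 bases were 52.1% G or C. Below are the middle 120 bases of the longest coding exon segment of each of 4 members, from GENCODE M21 transcripts (GRCm38), 5′ to 3′ in the direction of the gene, with every G and C in capitals.
Vgf: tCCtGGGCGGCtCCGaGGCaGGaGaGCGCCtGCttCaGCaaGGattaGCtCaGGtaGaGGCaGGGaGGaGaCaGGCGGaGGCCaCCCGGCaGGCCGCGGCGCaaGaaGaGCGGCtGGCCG
Cntfr: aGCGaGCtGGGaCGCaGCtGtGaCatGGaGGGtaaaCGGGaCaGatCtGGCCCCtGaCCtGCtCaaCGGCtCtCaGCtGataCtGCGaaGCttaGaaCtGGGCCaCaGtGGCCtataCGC
Ntrk2: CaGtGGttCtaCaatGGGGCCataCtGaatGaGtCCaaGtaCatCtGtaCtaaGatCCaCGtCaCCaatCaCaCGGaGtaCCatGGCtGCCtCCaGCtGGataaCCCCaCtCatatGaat
Bdnf: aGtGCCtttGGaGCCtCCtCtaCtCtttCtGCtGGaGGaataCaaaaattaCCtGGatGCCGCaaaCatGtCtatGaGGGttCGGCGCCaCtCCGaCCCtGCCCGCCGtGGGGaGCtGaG
The Vgf stretch lies on the plus strand at chr5:137031851-137031970, coding exon, and was 70% G or C. The Cntfr stretch lies on the minus strand at chr4:41670899-41671018 and was 59.2%. The Ntrk2 stretch, on the plus strand at chr13:58861342-58861461, was 48.3%, and the Bdnf stretch, on the plus strand at chr2:109723705-109723824, was 56.7%.

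Among the factors, Bdnf (ENSMUSG00000048482; GRCm38 chromosome 2, 109674700 to 109727007, plus strand) separated NAc from the other regions. In sham libraries its lowest, median and highest levels were 0.0928, 0.968 and 1.33 RPKM in NAc, 4.58, 5.52 and 6.60 in PFC, and 3.89, 4.23 and 4.31 in PAG. No NAc library reached the lowest PFC or PAG library, and the PAG sham libraries lay within a narrow band. Groups were compared with limma, which fits a linear model to every gene and shares information on the spread across genes. A region difference counted as passed when the Benjamini-Hochberg adjusted p was under 0.05 and the fold was 2 or more. On the log2(RPKM + 0.5) scale, which understates the change of low genes, Bdnf was lower in NAc than in PFC (−2.37, SE 0.23) and than in PAG (−2.0, SE 0.23), both past these limits, while PFC and PAG differed by 0.37 (SE 0.23, limma adjusted p = 0.149). The SNI libraries gave −2.66 and −2.27 for the same contrasts. In these bulk samples, fewer cells of a type and less RNA per cell cannot be told apart.

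Within NAc, the level of Bdnf followed that of Slc17a7, the vesicular glutamate transporter of cortical excitatory neurons. Sham library 5 and SNI library 12, the libraries with the least Slc17a7 (1.59 and 2.53 RPKM), had 0.0928 and 0.0711 RPKM of Bdnf, from 33 and 23 reads. SNI library 7, the library with the most Slc17a7 (178 RPKM), had the most Bdnf of the region, 1.65 RPKM from 666 reads. Over the 12 NAc libraries, centred by surgery, Pearson's r was 0.960 (permutation p = 1e-05, the smallest that 100000 resamples can give; adjusted p = 0.0004 over 80 relations) and Spearman's rho 1.0 (permutation p = 1e-05, adjusted p = 0.0008). Without libraries 5 and 12, the farthest from the median of Slc17a7, r was 0.984. Per 100 RPKM of Slc17a7, the median level of Bdnf in NAc was 1.04 RPKM for sham and 1.31 for SNI, beside 1.17 for sham and 1.23 for SNI in PFC. The ratio of Bdnf to Slc17a7 in NAc was thus near that of the cortex, except in the libraries with little Slc17a7, where it reached 5.84. PAG does not follow this line: it had 3.67 to 5.15 RPKM of Bdnf with summed cortical markers of at most 5.84 RPKM. Against Chat, the enzyme of cholinergic neurons, the NAc level of Bdnf ran the other way (r = −0.769, permutation p = 0.00399, adjusted p = 0.0355; rho = −0.748, permutation p = 0.0106, adjusted p = 0.0707), and r was −0.678 without sham library 4 and SNI library 7. The source of Bdnf in the NAc libraries was not tested.

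**Figure D1:**
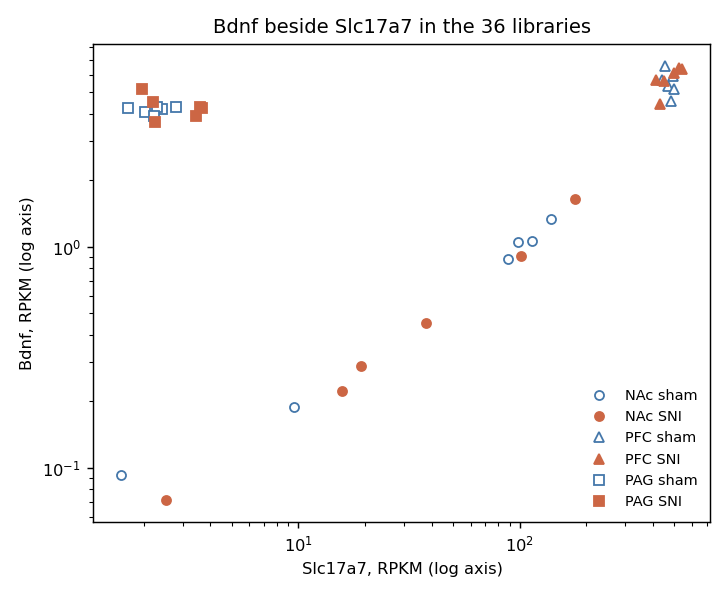
Level of Bdnf against that of Slc17a7, both in RPKM on log axes, in the 36 libraries; marker shape gives the region and fill the surgery. The 12 NAc libraries climb together from 0.0711 to 1.65 RPKM of Bdnf as Slc17a7 goes from 1.59 to 178 RPKM, the PFC libraries stand at the upper right, and the PAG libraries stand apart at low Slc17a7 with 3.67 to 5.15 RPKM of Bdnf.

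Ntf3 (ENSMUSG00000049107; chromosome 6, 126101412 to 126166910, minus strand) was by mean the least abundant member in NAc and in PAG and was low everywhere, from 3 to 143 reads per library. Its mean was 0.932 ± 0.193 RPKM in PFC sham libraries, 0.286 ± 0.173 in NAc and 0.246 ± 0.118 in PAG (SD, n = 6). Over sham and SNI libraries, the lowest PFC library had 0.654 RPKM and the highest library of NAc or PAG 0.490. The mean over all libraries was under the filter of 0.5 RPKM, so the region test did not include Ntf3. Without a filter the log2 difference was −0.89 (SE 0.13) between NAc and PFC and 0.94 (SE 0.13) between PFC and PAG, each under a fold of 2 on this scale. The related ligand gene Ntf5 had at most 0.133 RPKM in any library. Per 100 RPKM of Slc17a7, the median level of Ntf3 in NAc was 0.409 RPKM for sham and 0.614 for SNI. In PFC it was 0.196 for sham and 0.231 for SNI. Unlike that of Bdnf, the median ratio of Ntf3 was thus higher in NAc than in PFC in both surgery groups.

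Ntrk2 (ENSMUSG00000055254; chromosome 13, 58806569 to 59133970, plus strand), the receptor of BDNF, was the most abundant member in every region. Sham levels were 55.6, 59.4 and 68.6 RPKM (lowest, median, highest) in NAc, 64.3, 67.3 and 69.6 in PFC, and 91.3, 93.9 and 99.2 in PAG. The PAG range stood above those of the other regions, while NAc and PFC overlapped. The log2 difference from PAG was −0.63 (SE 0.05) for NAc and −0.48 (SE 0.05) for PFC, each under a fold of 2. Ntrk3 (ENSMUSG00000059146; chromosome 7, 78175959 to 78738012, minus strand), the receptor of neurotrophin-3, was the most even member, at 17.7 ± 1.06 RPKM in PFC sham libraries, beside 15.2 ± 0.618 for PAG and 15.03 ± 1.68 for NAc (SD, n = 6); NAc and PAG did not differ beyond their spread (−0.02, SE 0.08, limma adjusted p = 0.851). An antisense gene that overlaps Ntrk3 reached 1.80 RPKM, and without a stated strand setting the reads of the pair cannot be told apart. Within NAc, centred by surgery, Ntrk3 rose with Chat (r = 0.789, permutation p = 0.00377, adjusted p = 0.0355; rho = 0.713, permutation p = 0.017, adjusted p = 0.105), and r was 0.642 without sham library 4 and SNI library 7.

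Ngfr (ENSMUSG00000000120; chromosome 11, 95568818 to 95587735, minus strand) was highest and most variable in NAc. Sham levels were 0.857, 1.35 and 3.39 RPKM (lowest, median, highest) in NAc, 0.167, 0.272 and 0.421 in PFC, and 0.583, 0.764 and 0.982 in PAG. The NAc and PFC ranges did not overlap, and those of NAc and PAG did. The log2 difference was 1.37 (SE 0.19) between NAc and PFC, past the threshold. It was 0.66 (SE 0.19) between NAc and PAG and −0.70 (SE 0.19) between PFC and PAG, under a fold of 2. At a pseudocount of 1 the difference between NAc and PFC was 0.99, just under that fold.

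The GDNF receptor components had different orders over the regions. Gfra1 (ENSMUSG00000025089; chromosome 19, 58235604 to 58455909, minus strand) had sham levels of 17.6, 19.5 and 21.9 RPKM (lowest, median, highest) in NAc, 14.3, 14.9 and 16.7 in PAG, and 4.81, 5.51 and 6.21 in PFC. The ranges of the 3 regions did not overlap. Gfra1 was higher in NAc than in PFC (1.73, SE 0.07) and lower in PFC than in PAG (−1.37, SE 0.07), past the threshold and fold. Ret (ENSMUSG00000030110; chromosome 6, 118151745 to 118197718, minus strand) was a PAG transcript: sham levels were 8.70, 10.5 and 13.2 RPKM in PAG, 0.686, 0.777 and 1.03 in NAc, and 0.430, 0.526 and 0.630 in PFC. Its log2 difference from PAG was −3.09 (SE 0.10) in NAc and −3.44 (SE 0.10) in PFC. In NAc, Gfra1 was thus abundant where Ret was low, and the ligand Gdnf was also highest there, at 1.20 RPKM beside 0.166 in PAG and 0.0709 in PFC. Gfra2, the coreceptor of neurturin, had the other order, with 37.1 RPKM in PFC, 13.5 in PAG and 6.01 in NAc.

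Within PAG, Ret varied with markers of cholinergic and dopamine neurons. Over the 12 PAG libraries, centred by surgery, Ret rose with Chat (r = 0.758, permutation p = 0.00297, adjusted p = 0.0339; rho = 0.839, permutation p = 0.00166, adjusted p = 0.0291), and r was 0.873 without the 2 libraries farthest out. With Th, the enzyme of dopamine neurons, r was 0.753 (permutation p = 0.0077, adjusted p = 0.0474) and rho 0.755 (permutation p = 0.00709, adjusted p = 0.0567), and r was 0.784 without the 2 farthest. Gfra1 followed Tph2, the enzyme of serotonin neurons (r = 0.822, permutation p = 0.0135, adjusted p = 0.077; rho = 0.860, permutation p = 0.00414, adjusted p = 0.0473), but r fell to 0.483 without SNI libraries 31 and 34, on which the relation rests. These libraries had the least Tph2 of PAG, 52.7 and 62.2 RPKM, and also the least Chat, 1.36 and 0.361 RPKM. Gfra1 rose with Chat too (r = 0.806, permutation p = 0.0074, adjusted p = 0.0474, and rho = 0.657, permutation p = 0.0381, adjusted p = 0.152). Without the same libraries r with Chat was 0.443. For Gfra1 the relations with Tph2 and with Chat cannot be told apart here.

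Vgf (ENSMUSG00000037428; chromosome 5, 137026392 to 137033351, plus strand) and Cntfr (ENSMUSG00000028444; chromosome 4, 41657498 to 41697089, minus strand) were expressed in all 3 regions, and in NAc and PFC their libraries varied more than those of Ntrk2 or Ntrk3. Sham levels of Vgf were 18.5, 24.9 and 29.8 RPKM (lowest, median, highest) in NAc, 19.2, 36.4 and 45.9 in PFC, and 14.998, 17.9 and 25.03 in PAG. Those of Cntfr were 8.82, 13.8 and 18.9 in NAc, 10.2, 23.03 and 25.9 in PFC, and 11.5, 13.3 and 14.6 in PAG. The regions overlapped for both genes. The largest differences lay between PFC and PAG, 0.77 for Vgf (SE 0.26, limma adjusted p = 0.00819) and 0.52 for Cntfr (SE 0.21, limma adjusted p = 0.0268), each under a fold of 2, and in SNI libraries they were 0.02 and −0.05. Of the ligands of this receptor family, Cntf itself had at most 0.209 RPKM in any library; Lifr, a signalling chain of the receptor, was highest in PAG, at 7.86 RPKM beside 5.07 in PFC and 3.87 in NAc.

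Counted over members, 3 of 8 tested passed between NAc and PFC (Bdnf, Gfra1 and Ngfr), where 6.85% of all genes did (3.38% higher and 3.47% lower in NAc). Between NAc and PAG 2 of 8 passed (Bdnf and Ret), both lower in NAc, against 13% of genes (6.59% higher and 6.42% lower in NAc). Between PFC and PAG 2 of 8 passed (Gfra1 and Ret), both lower in PFC, against 15.1% of genes (7.74% higher and 7.35% lower in PFC).

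**Figure D2:**
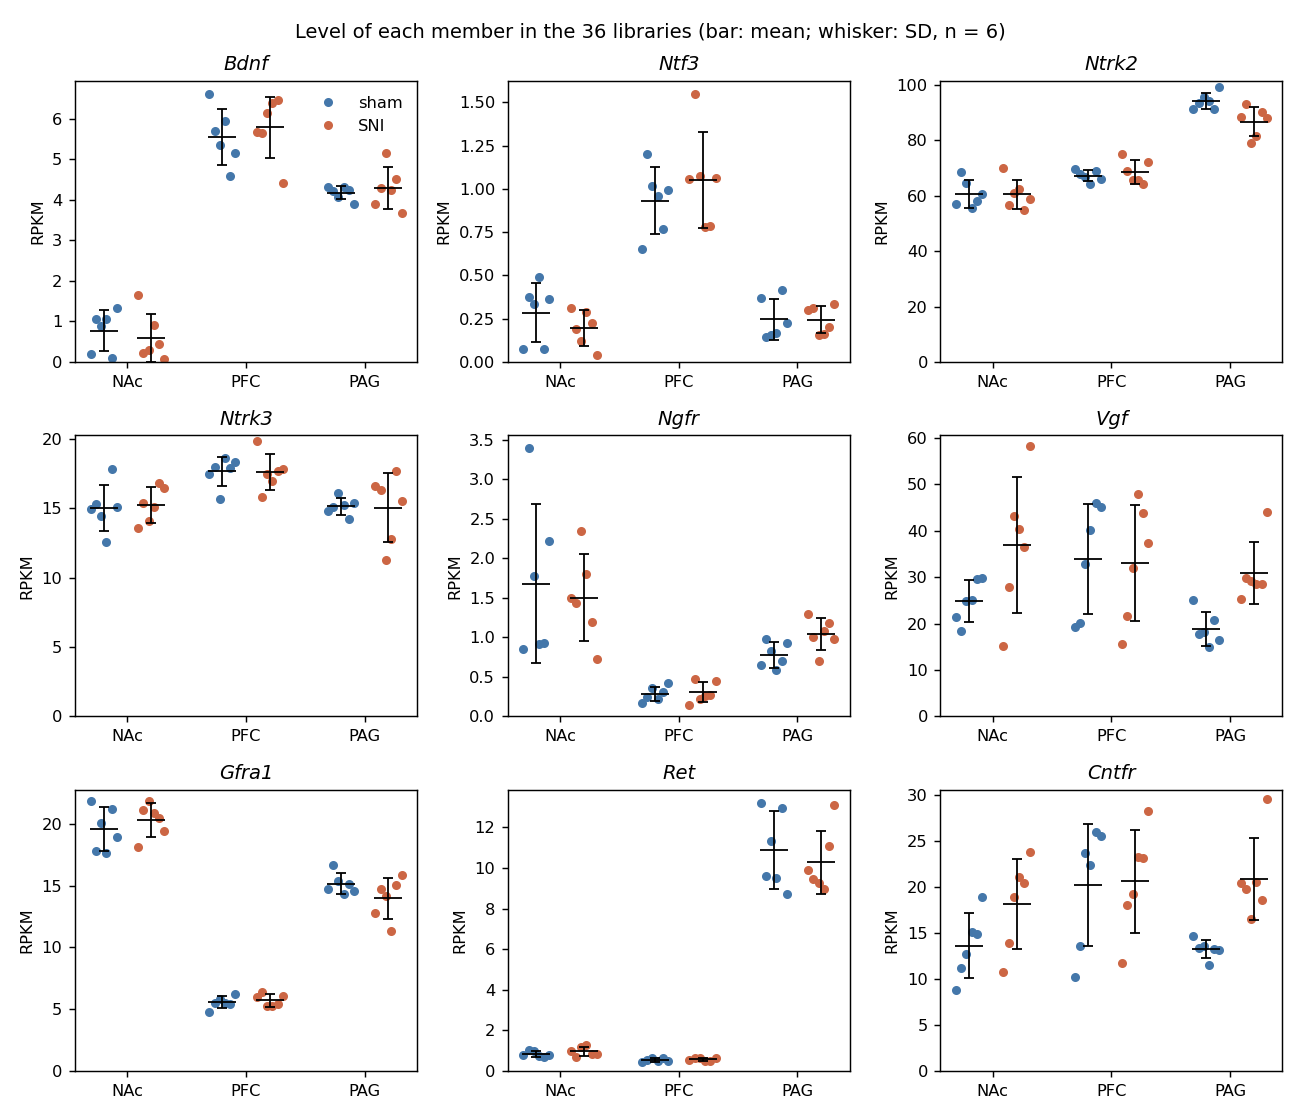
Level in RPKM of each of the 9 members (panels) in the 36 libraries, by region along the x axis and by surgery in colour; points are libraries, bars the mean and whiskers the SD of 6 libraries. Bdnf is low in NAc, Ret is at 8.70 RPKM or more in PAG alone and Gfra1 is low in PFC, while Vgf and Cntfr spread widely within NAc and PFC and stand higher in SNI than in sham libraries of PAG.

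SNI and sham libraries were then compared within each region, to ask which neurotrophic transcripts differ long after the injury. In PAG, Vgf and Cntfr were higher and Ntrk2 lower in SNI libraries, and the other 5 members tested did not pass. Vgf had 14.998, 17.9 and 25.03 RPKM (lowest, median, highest) in sham and 25.3, 28.9 and 44.0 in SNI libraries. The groups did not overlap, although the highest sham and the lowest SNI library nearly touched, and SNI library 36 stood above the rest. The log2 fold change was 0.70 (SE 0.13, limma adjusted p = 0.0012). Cntfr had 11.5, 13.3 and 14.6 RPKM in sham and 16.5, 20.1 and 29.5 in SNI libraries, again without overlap and with library 36 on top (0.62, SE 0.11, limma adjusted p = 0.000612). Ntrk2 had 91.3, 93.9 and 99.2 RPKM in sham and 79.2, 88.3 and 93.1 in SNI libraries, with overlap and every SNI library below the sham median (−0.12, SE 0.04, limma adjusted p = 0.0336). Of 15592 genes tested in PAG, 35.2% passed, 21.5% upwards and 13.7% downwards, so a count of 3 of 8 members (2 up, 1 down) is near the background; 61.1% of the genes called were higher in SNI, and 42.1% after quantile normalization. At an unadjusted p under 0.05 there were 4 of 8 members and 46% of genes. The groups did not overlap for 16.9% of genes (13.3% higher in SNI), beside 2 of the 8 members, both higher.

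Both Vgf and Cntfr moved with the GC slope of the libraries in every region. Over 12 libraries of a region, centred by surgery, Vgf against the slope gave r = 0.887 in NAc (permutation p = 0.00073, adjusted p = 0.00973; rho = 0.783, permutation p = 0.00673, adjusted p = 0.0567), 0.955 in PFC (permutation p = 1e-05, adjusted p = 0.0004; rho = 0.916, permutation p = 0.00028, adjusted p = 0.00747) and 0.793 in PAG (permutation p = 0.00763, adjusted p = 0.0474; rho = 0.503, permutation p = 0.114, adjusted p = 0.295). Without the 2 libraries farthest from the median slope, r was 0.795, 0.968 and 0.454, so in PAG the relation of Vgf rests on sham library 28 and SNI library 36. For Cntfr r was 0.970 in NAc (permutation p = 2e-05, adjusted p = 0.00053; rho = 0.958, permutation p = 2e-05, adjusted p = 0.0008), 0.962 in PFC (permutation p = 0.00026, adjusted p = 0.00416; rho = 0.762, permutation p = 0.0086, adjusted p = 0.0625) and 0.894 in PAG (permutation p = 0.00019, adjusted p = 0.0038; rho = 0.846, permutation p = 0.00182, adjusted p = 0.0291). Without the 2 farthest libraries these were 0.946, 0.888 and 0.875. No other member had an adjusted p under 0.05 with the slope in any region. The slope was computed from the values of all genes in these same libraries, so genes of extreme GC content tend to follow it by construction. How many other genes follow it as closely was not counted, so these relations do not single out Vgf and Cntfr. In NAc and PFC, where surgery and slope are not aligned, Vgf and Cntfr spanned from 15.3 to 58.3 and from 8.82 to 28.2 RPKM.

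**Figure D3:**
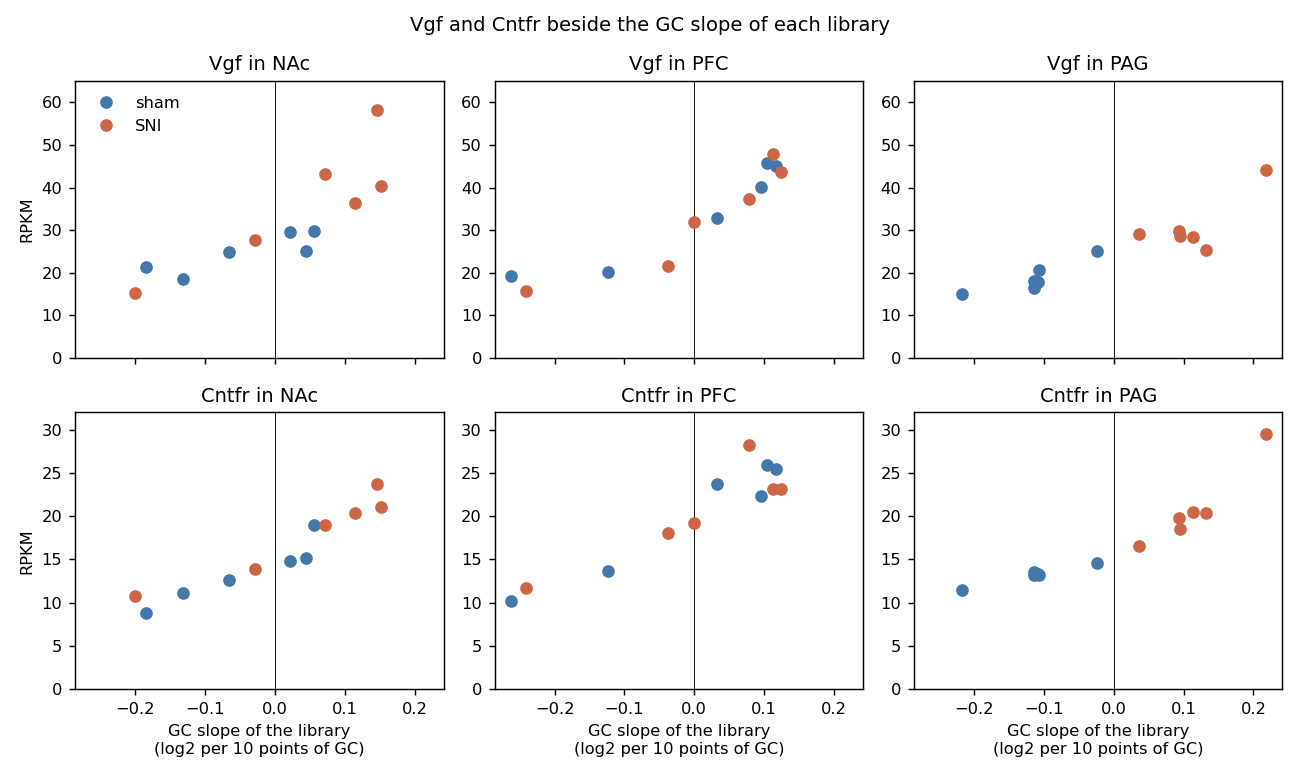
Level of Vgf (top) and Cntfr (bottom) in RPKM against the GC slope of each library, in log2 units per 10 percentage points of GC content, by region (columns) and surgery (colour), one point per library. Levels climb with the slope in all 3 regions; sham and SNI libraries are mixed along the slope in NAc and PFC, whereas in PAG every sham library has a negative and every SNI library a positive slope.

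The PAG differences changed with the treatment of this slope. After removal of a loess trend on GC content from each library, the log2 fold change was 0.21 for Vgf (SE 0.09, limma adjusted p = 0.133) and 0.28 for Cntfr (SE 0.07, limma adjusted p = 0.0188), and all genes called fell from 5495 to 2352. After removal of each gene's own coefficient on the slope, taken from the groups of NAc and PFC, it was −0.17 for Vgf (SE 0.08, limma adjusted p = 0.44) and −0.12 for Cntfr (SE 0.05, limma adjusted p = 0.362), with 20 genes called. With the slope as a covariate it was −0.09 for both (SE 0.19 and 0.12, limma adjusted p = 0.904 and 0.826). In that fit 0 genes were called and 1374 had an unadjusted limma p under 0.05. Slope and surgery are aligned in PAG, so the covariate fit separates them poorly, and its 0 calls do not show that no gene differs. Ntrk2 stayed below 0 under all 3 treatments (−0.04, −0.03 and −0.15) and passed under none of them. Its SE was 0.04 as deposited and 0.09 with the covariate. Bdnf, at 4.29 ± 0.517 RPKM after SNI beside 4.17 ± 0.163 after sham surgery (SD, n = 6; 0.03, SE 0.06, limma adjusted p = 0.735), gave 0.18 with the loess trend removed (SE 0.05, limma adjusted p = 0.0357), 0.20 with the coefficients of the other regions removed (limma adjusted p = 0.158) and 0.30 with the covariate (limma adjusted p = 0.533).

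**Figure D4:**
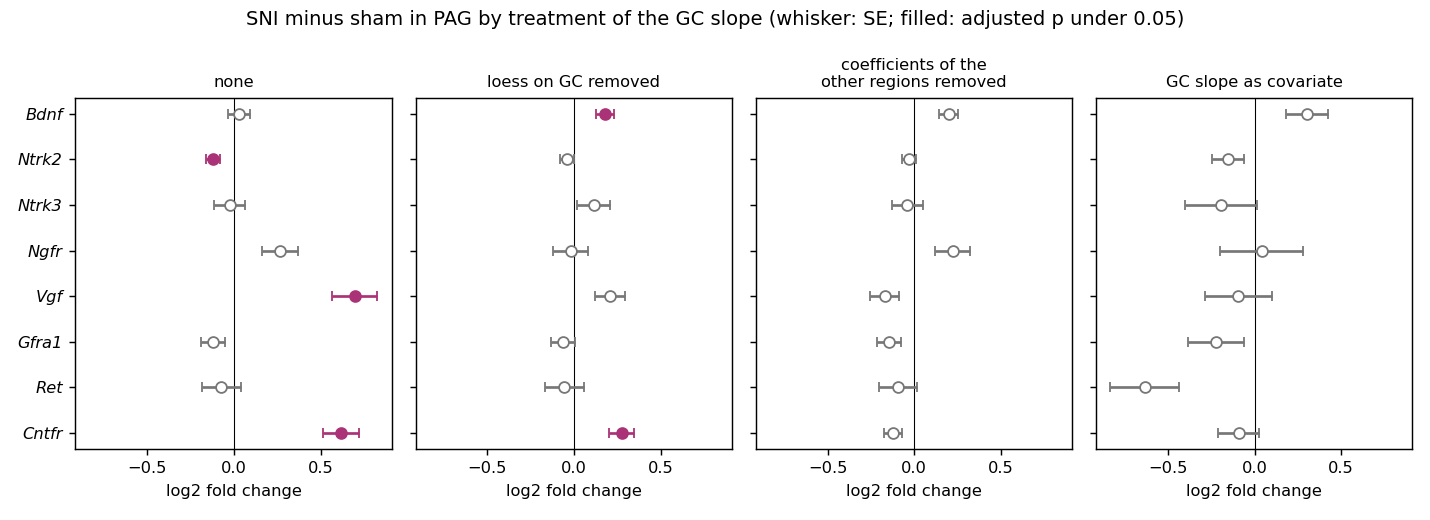
Log2 fold change of SNI against sham in PAG for the 8 members tested, as deposited and under 3 treatments of the GC slope (panels), with the SE as whisker and filled points where the adjusted p was under 0.05. Vgf and Cntfr go from 0.70 and 0.62 to values between −0.17 and 0.28, and Bdnf goes from 0.03 to between 0.18 and 0.30.

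The remaining members of PAG differed by less than the threshold. Ngfr was at 1.04 ± 0.205 RPKM after SNI beside 0.778 ± 0.159 after sham surgery (SD, n = 6; 0.27, SE 0.10, limma adjusted p = 0.0603), above the sham median in 5 of 6 SNI libraries. Gfra1 gave −0.12 (95% interval −0.27 to 0.03), Ret −0.07 (−0.31 to 0.17) and Ntrk3 −0.02 (−0.22 to 0.17). Ntf3, at 0.246 and 0.245 RPKM, was below the filter, and without a filter it gave 0.0048 (SE 0.10, limma adjusted p = 0.987). The call of Ntrk2 was lost when any of sham libraries 26, 27, 28 and 30 or SNI library 34 was left out (limma adjusted p 0.0554 to 0.0762, log2 fold change −0.12 to −0.10), and Ngfr passed without sham library 26 or SNI library 33 (0.31 and 0.34, limma adjusted p = 0.0426 and 0.0114). Summed markers of other cell types were described for the PAG groups and not tested. The microglial sum ran from 59.4 to 65.4 RPKM in sham and from 69.5 to 86.3 in SNI libraries, without overlap, as for 16.9% of single genes. Sham and SNI sums overlapped for the 4 cholinergic markers measured (11.9 to 32.3 and 4.36 to 21.8) and the oligodendrocyte markers (1162 to 1347 and 1206 to 1675). They also overlapped for the serotonin markers (177 to 275 and 79.5 to 235). By itself Mbp, 1 of the oligodendrocyte markers, did not overlap, at 204 to 260 RPKM in sham and 300 to 408 in SNI libraries. No marker of these lists was at 0. Chat was at 2.21 ± 1.51 RPKM after SNI beside 4.17 ± 1.46 after sham surgery (SD, n = 6; exact permutation p = 0.0476, adjusted p = 0.31). Over the PAG libraries, centred by surgery, Vgf rose with Chat (r = 0.706, permutation p = 0.0214, adjusted p = 0.103; rho = 0.818, permutation p = 0.00294, adjusted p = 0.0392), and r was 0.867 without SNI libraries 31 and 34. With Chat as a covariate, Vgf gave 0.94 and Cntfr 0.76, and Ntrk2 −0.09 (limma adjusted p = 0.166). The part of the other markers in the member differences was not tested.

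In NAc, 0 of 8 members tested passed, as did 0 of 15264 genes (0%), with 4.32% of genes and 0 members at an unadjusted p under 0.05. Vgf had 18.5, 24.9 and 29.8 RPKM in sham and 15.3, 38.4 and 58.3 in SNI libraries, above the sham median in 5 of 6 (0.47, SE 0.25, limma adjusted p = 0.78). Cntfr had 8.82, 13.8 and 18.9 RPKM in sham and 10.7, 19.7 and 23.8 in SNI libraries (0.39, SE 0.20, limma adjusted p = 0.78). SNI library 7 had the lowest Vgf of the region and library 12 the highest, so the SNI range enclosed the sham range. Bdnf gave −0.24 (95% interval −1.01 to 0.53), a wide interval beside the uneven Slc17a7 of these libraries. Ntrk2 gave −0.00 (−0.15 to 0.14), Ntrk3 0.02 (−0.14 to 0.19), Ngfr −0.05 (−0.64 to 0.53), Gfra1 0.05 (−0.08 to 0.19) and Ret 0.14 (−0.09 to 0.36). The groups overlapped for all 8 members tested, and did not for 0.131% of genes (0.0131% higher in SNI). Ntf3 was below the filter, with a mean of 0.197 RPKM in SNI beside 0.286 in sham libraries; the groups overlapped, and without a filter it gave −0.16 (SE 0.15, limma adjusted p = 0.831).

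In PFC, 0 of 8 members tested passed, as did 0 of 15192 genes (0%), with 1.45% of genes and 0 members at an unadjusted p under 0.05; Ngfr was below the filter. The groups overlapped for all 8, and did not for 0.0856% of genes (0.0527% higher in SNI). Bdnf had 4.58, 5.52 and 6.60 RPKM in sham and 4.41, 5.90 and 6.46 in SNI libraries, with nearly the same range (0.05, 95% interval −0.15 to 0.26). Ntf3 gave 0.11 (−0.16 to 0.37), Ntrk2 0.03 (−0.07 to 0.13), Ntrk3 −0.01 (−0.13 to 0.12), Gfra1 0.04 (−0.11 to 0.18) and Ret 0.06 (−0.09 to 0.22). The intervals of Vgf (−0.70 to 0.59) and Cntfr (−0.49 to 0.59) were the widest, with levels in both groups spanning the range of the GC slope. Bdnf fell with Drd2, a striatal transcript, across PFC libraries (r = −0.786, permutation p = 0.00754, adjusted p = 0.0474; rho = −0.734, permutation p = 0.00502, adjusted p = 0.0502), and r was −0.508 without SNI libraries 20 and 24, on which the relation partly rests. Library 24 had 6.65 RPKM of Drd2 and the lowest Bdnf.

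**Figure D5:**
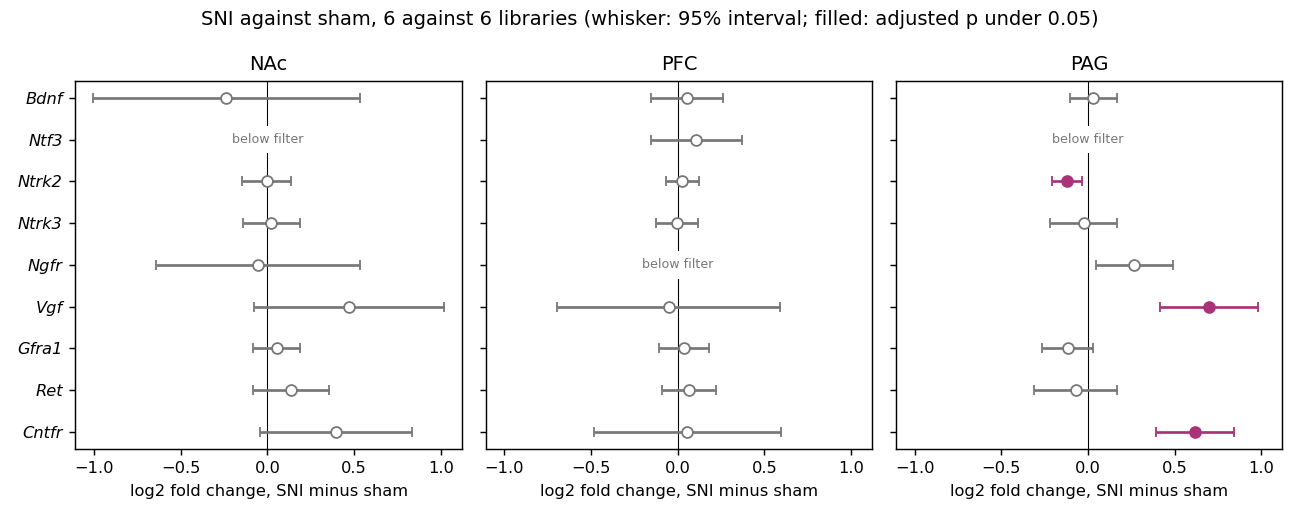
Log2 fold change of SNI against sham for each member (rows) in NAc, PFC and PAG (panels), from 6 against 6 libraries, with the 95% interval as whisker and filled points where the adjusted p was under 0.05. Filled points appear only in PAG, for Vgf, Cntfr and Ntrk2; the intervals of Vgf and Cntfr are also wide in NAc and PFC.

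Passing in PAG and not elsewhere does not show that regions differ, so the difference of SNI effects was tested in 1 model of all 36 libraries. No member passed in any of the 3 contrasts, as no gene did (0%); at an unadjusted p under 0.05 there were 1.14% of genes between NAc and PFC, 8.98% between NAc and PAG and 17.8% between PFC and PAG, beside 0, 0 and 1 of 8 members (Vgf, unadjusted p = 0.0485 in limma). The largest member difference was that of Vgf between PFC and PAG (−0.75, SE 0.37, limma adjusted p = 0.278), followed by Cntfr (−0.56, SE 0.30, limma adjusted p = 0.31). In this model, whose spread is shared by all regions, Cntfr passed in PAG (limma adjusted p = 0.0367) and Vgf did not (limma adjusted p = 0.0509).

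The genes most like each member were taken as the 3 of highest Pearson r over the 36 libraries, after centring by region and surgery; r is given as a description, and libraries share their depth and GC slope. Vgf was most like Ccdc92 (0.962), Chpf (0.958) and Lypla2 (0.955), and Cntfr like Aatk (0.976), Sphk2 (0.976) and Lzts2 (0.973). The transcripts of these 6 genes were 58.0% to 63.1% G or C, and Vgf and Cntfr had r = 0.876 with each other. Bdnf was most like Fam19a1 (0.961), Tbr1 (0.961), a transcription factor of cortical excitatory neurons, and Ncald (0.959). These values rest largely on the NAc libraries. There the SD of Bdnf was 66.2% of the mean in sham and 98.6% in SNI libraries, beside at most 13.1% in the other groups. Ntrk2 was most like the NMDA receptor subunit gene Grin3a (0.811), Ntrk3 like Med12l (0.840), Ngfr like Clcn6 (0.798), Ntf3 like Rab3b (0.778), Ret like Sncg (0.732) and Prph (0.719), and Gfra1 like Ddc (0.703), the enzyme of the last step of dopamine and serotonin synthesis. Without centring, where the regions set the order, Ret was most like Pgr15l (0.993) and the dopamine transporter gene Slc6a3 (0.993), and Gfra1 like Pbx3 (0.988) and Gad2 (0.987), a GABA-synthesizing enzyme.

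Further genes of the pathways were counted from lists, beside a background in PAG of 21.5% of all genes that rose and 13.7% that fell. In PAG, of 24 neurotrophin signalling genes tested 10 rose and 4 fell, with a median log2 fold change of 0.04 beside −0.02 over all genes. The largest were Rtn4r, the Nogo receptor (0.824 to 1.94 RPKM; 0.87, SE 0.15, limma adjusted p = 0.000498), Frs3, an adaptor of Trk receptors (3.40 to 5.65; 0.65, SE 0.09), Lingo1, a partner of Ngfr in the Nogo receptor complex (8.70 to 13.2; 0.57, SE 0.08), and Sh2b1, another Trk adaptor (11.2 to 15.2; 0.43, SE 0.07). Of 7 genes of neurotrophin processing, 3 rose and 1 fell: the proprotein convertases Furin (1.60 to 2.43 RPKM; 0.48, SE 0.07), Pcsk6 (6.44 to 7.70; 0.24, SE 0.04) and Pcsk7 (6.05 to 6.78; 0.15, SE 0.04) rose, and Serpini1, which encodes the inhibitor neuroserpin, fell (34.98 to 30.5; −0.19, SE 0.05). Of 9 GDNF family genes 4 rose and 0 fell: Dok4 (0.31, SE 0.06), Sdc3 (0.28, SE 0.06), Gfra2 (0.24, SE 0.05) and Gfra4 (0.17, SE 0.05). Of 9 CNTF family genes Tyk2 rose (0.44, SE 0.08), and Jak1 (−0.14, SE 0.03) and Il6st, the gp130 chain (−0.10, SE 0.03), fell. The transcripts of the 4 signalling genes named here were 58.0% to 62.7% G or C, and that of Serpini1, which fell, 37.2%. Those of the other named genes that rose ran from 53.3% (Gfra2) to 58.7% (Gfra4). Jak1 and Il6st, which fell, had 47.6% and 47.4%, beside a median of 49.7% over genes. The counts of these short lists are read beside that background only, and were not recomputed under the treatments of the GC slope.

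Bdnf is itself induced by neuronal activity, so activity-induced genes were set beside it. In PAG 6 of 13 tested rose and 0 fell, beside 21.5% and 13.7% of all genes, among them Junb (0.326 to 0.738 RPKM; 0.55, SE 0.15, limma adjusted p = 0.0132), Arc (3.63 to 5.10; 0.44, SE 0.08), Nptx2 (6.40 to 8.45; 0.37, SE 0.06) and Ier2 (0.419 to 0.682; 0.36, SE 0.11), with a list median of 0.21, while Bdnf gave 0.03. The transcripts of these 4 genes were 58.3% to 62.6% G or C, and in PAG the GC slope and the surgery cannot be told apart. With the GC slope treated, Bdnf gave 0.18 to 0.30 under the 3 treatments, and the list was not recomputed. In PFC 0 of 16 passed, with a median of −0.35 and 3 of 16 above 0, while Bdnf gave 0.05. The smallest p in PFC belonged to Npas4, an activity-induced transcription factor (9.85 to 5.48 RPKM; −0.76, SE 0.17, limma adjusted p = 1.0). In NAc 0 of 16 passed, with 8 of 16 above 0, and the smallest p belonged to Btg2 (4.81 to 2.93 RPKM; −0.62, SE 0.14, limma adjusted p = 0.78). At an unadjusted p under 0.05 there were 3 of 16 in each of these regions, beside 4.32% of all genes in NAc and 1.45% in PFC. No gene of the other lists passed in NAc or PFC either; the smallest p belonged to Sh2b1 (0.25), Plat (−0.21), Sdc3 (0.10) and Il6ra (0.20) in NAc and to Sorcs3 (−0.12), Pcsk5 (−0.10), Dok5 (−0.05) and Il6ra (0.22) in PFC, at limma adjusted p = 0.78 or higher.

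Promoter windows of 300 bases were at hand for 6 members, 18 windows in all, 7 of them for Bdnf, whose transcripts start from several promoters (RefSeq, GRCm38.p6). The cyclic AMP response element TGACGTCA, the motif of the activity-regulated factor CREB, was in 0 of the 18 windows and in 1.79% of all 32851 windows. Its shorter form TGACG, read on both strands and contained in the longer motif, was searched after the longer one had given no match; it was in 20.8% of all windows and in 1 of the 18, which belongs to Bdnf. The 250 bases before that start, on the plus strand at chr2:109692186-109692435, are shown with the match on the other strand (CGTCA) in capitals.
Bdnf promoter: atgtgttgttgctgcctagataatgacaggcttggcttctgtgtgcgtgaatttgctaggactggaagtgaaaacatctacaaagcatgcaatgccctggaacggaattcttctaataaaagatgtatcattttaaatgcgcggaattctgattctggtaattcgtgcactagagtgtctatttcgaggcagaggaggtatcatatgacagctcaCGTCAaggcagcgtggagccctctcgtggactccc
Only exact matches were counted. The CGTCA match starts 35 bases before the transcript start and, with the bases just before it, differs from TGACGTCA in 1 base. It describes the letters of this window and was not tied to a level of Bdnf, since the table gives 1 value per gene and not per promoter.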

How the data were processed

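The authors deposited 1 table of RPKM values that also lists gene lengths. The submitters' processing notes name HTSeq, TopHat2 and mm10, a mouse build; versions, settings and strand handling were not given in the sources used here. Per the labels' protocols, poly-A RNA was selected with an Illumina TruSeq kit. Deposited RPKM times length and depth gave whole reads for 100% of values within 0.001, so the depth of each library (27.6 to 64.9 M reads) was recovered; for a 1 kb gene, a single read equalled 0.0154 to 0.0362 RPKM. No libraries of a group agreed within sampling noise (lowest chi-square per gene 3.89 over 90 pairs).

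RPKM is not a count, so limma 3.58.1 (R 4.3.3) with a mean-variance trend was fitted on log2(RPKM + 0.5) to all genes whose mean was 0.5 RPKM or more. Tests were two-sided, adjusted by Benjamini-Hochberg over all genes, at 0.05. SNI was compared with sham within 12 libraries of a region; region and between-region contrasts came from 1 model of 36 libraries, region calls with a fold of at least 2. Library measures used exact permutation over 924 assignments, and relations across libraries 100000 permutations within surgery groups. The loess span on GC content was 0.3; 99% of tested genes had a GC content from GENCODE M21. Alternatives were other pseudocounts, filters, scalings, covariates, GC corrections and left-out libraries. The fit was tested on simulated counts with known changes. These held no GC slope and no uneven dissection, so that test cannot show how either affects the calls. Voom on the recovered reads and unfiltered fits of the model of 36 libraries were added after seeing the data.

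All 9 members are named; of each further pathway list, up to 4 genes past the threshold with the largest change, otherwise the 1 or 2 of smallest p. The members and lists were chosen with earlier results of these data known.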

Additional observations from a re-analysis of the deposited data

Results flagged for a closer look

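The levels of 54 groups, each member in each combination of region and surgery, were searched for a library far from the other 5, and chance marks about 1 in 20 groups. The search found 2, both in SNI library 36 of PAG: Vgf, at 44.0 RPKM beside 25.3 to 29.8 in the other SNI libraries, and Cntfr, at 29.5 RPKM beside 16.5 to 20.5. Library 36 also had the highest GC slope of all, 0.218, and 29.1 M reads. Without it the log2 fold change of SNI against sham was 0.59 for Vgf (limma adjusted p = 0.000986) and 0.51 for Cntfr (limma adjusted p = 0.000131). The cause of its high values was not tested.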

How the results depend on the processing

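No paired analysis was possible because the groups share no replicate numbers. The planned edgeR fit was not run, since the deposited unit is RPKM; voom on the recovered reads took its place and was chosen after seeing the data. Depth limits Ntf3 (3 to 143 reads) and Bdnf in NAc (23 to 666 reads). In PAG 3 members passed. The count was 1 with 36 libraries in 1 model, 0 with the GC slope coefficients of the other regions removed and 0 with the GC slope as covariate. With the loess trend removed, Cntfr and Bdnf passed (limma adjusted p = 0.0188 and 0.0357). Over all alternatives on the 12 libraries or in 1 model the count ran from 0 to 4, and from 2 to 4 when a library was left out. The cause was not tested. All genes called in PAG numbered 5495, and 3337 in the model of 36 libraries, 2352 with the loess trend removed, 20 with the coefficients removed and 0 with the covariate. In NAc 0 genes passed, and 3 without SNI library 7. In NAc and PFC 0 members passed under every alternative run. Of the differences of SNI effects, 11 genes and 0 members passed between PFC and PAG without a filter. Vgf in PAG went from 0.70 to −0.171 with the coefficients removed and −0.0935 with the covariate, and Cntfr from 0.62 to −0.123 and −0.0923; the cause was not tested. Ntrk2 in PAG also missed the threshold in the model of 36 libraries (limma adjusted p = 0.0863), without a filter (0.0623) and after quantile normalization (0.108). Ngfr in PAG passed with voom (0.41, limma adjusted p = 0.044), and its difference between PFC and PAG passed with a pseudocount of 0.1 and with voom.

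The other log2 values that changed sign belonged to contrasts that had not passed. In PAG, with Chat as covariate Bdnf gave −0.000329, Ntrk3 0.0583, Gfra1 0.0225 and Ret 0.145. With the loess trend removed Ntrk3 gave 0.113 and Ngfr −0.0203, and Bdnf gave −0.0374 after quantile normalization. In NAc Ntrk2 gave 0.0233 with the loess trend removed, 0.0155 with the coefficients removed, 0.0388 with the GC slope as covariate, 0.00417 with Slc17a7 as covariate and 0.0288 with median-of-ratios scaling. Ntrk3 in NAc gave −0.00674 with the GC slope as covariate. In PFC Ntrk3 gave 0.00522 with the loess trend removed, and with Mbp as covariate Ntrk3 gave 0.014 and Cntfr −0.0343.

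Between NAc and PAG, Ntrk3 gave 0.0273 with the loess trend removed, 0.0302 in SNI libraries and 0.0447 with median-of-ratios scaling. Cntfr gave −0.103 with the loess trend removed, −0.221 in SNI libraries and −0.0154 after quantile normalization. In SNI libraries Vgf gave 0.147 between NAc and PFC, and Cntfr −0.0452 between PFC and PAG. Of the differences of SNI effects with the loess trend removed, Ntrk3 gave −0.0421 and Vgf 0.0497 between NAc and PAG, and Bdnf −0.113, Ntrk3 −0.109 and Ngfr 0.0408 between PFC and PAG. Ntrk2 gave 0.00196 between NAc and PFC with median-of-ratios scaling.

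When each library was left out in turn, NAc values ran from −0.0467 to 0.0308 for Ntrk2, −0.0244 to 0.0726 for Ntrk3 and −0.168 to 0.136 for Ngfr. PAG values ran from −0.0189 to 0.0688 for Bdnf and −0.073 to 0.0518 for Ntrk3. PFC values ran from −0.0391 to 0.0244 for Ntrk3, −0.196 to 0.138 for Vgf, −0.00192 to 0.0661 for Gfra1 and −0.122 to 0.203 for Cntfr. Vgf and Cntfr in PAG passed in every such fit (0.59 to 0.78 and 0.51 to 0.68).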
